A study of Homo sapiens with 12 samples.

Results

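The zinc finger genes packed on the short arm of human chromosome 19, from 19p13.11 to 19p12, were followed in 2 leukaemia cell lines, each with and without decitabine. The cluster was taken as 34 genes listed by symbol, from ZNF506 to ZNF254 (chr19:19792711-24129968, GRCh38.p14), and 31 of them had an array row of their own, out of 18417 genes measured. ZNF66, ZNF98 and ZNF728 had no row that carried their symbol alone and have no value. The cluster was chosen by its array values, because a run of these genes read lower in K562/ADR, so the differences between the lines below describe that choice and carry no test. The groups were K562/ADR (KA) with decitabine, KA untreated, K562 (KS) with decitabine and KS untreated, with 3 arrays each. KS is an established line from a human chronic myeloid leukaemia, and KA is its subline with resistance to adriamycin, an anthracycline, kept in medium with 50 nM of that drug. Decitabine, which resembles deoxycytidine, enters replicating DNA and binds DNA methyltransferases there, was given at 5 nM for 72 hours. The study asked how decitabine acts on resistance carried by the P-glycoprotein pump. The drug in the medium differs together with the line, and the labels say neither what untreated cells received nor that replicates came from separate cultures, so p-values measure the spread between these samples.

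Genes of this cluster mostly encode proteins with a KRAB domain at one end and a tail of C2H2 zinc fingers at the other. The fingers read DNA, and the KRAB domain recruits TRIM28, which in turn brings the histone methyltransferase SETDB1 and heterochromatin proteins. Many such proteins bind retrotransposons. ZNF91 is known to silence SVA and L1PA elements and ZNF93 to silence an older set of L1PA elements. The genes arose by local duplication in primates and are close copies, so an array probe of one may also catch a neighbour. Which copy was read is therefore uncertain for every member.

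Stretches of sequence shared between members are visible in the promoters. These are shown for ZNF93, ZNF90 and ZNF737, each strongly lower in KA, and for ZNF431, which was chosen after its values were seen. ZNF431 is a gene of the same cluster that read alike in both untreated lines. Each sequence is the 250 bases before the RefSeq gene start in GRCh38.p14, read 5′ to 3′ along the gene. The windows are chr19:19900696-19900945 on the plus strand for ZNF93, chr19:20077750-20077999 on the plus strand for ZNF90, chr19:20565782-20566031 on the minus strand for ZNF737 and chr19:21141790-21142039 on the plus strand for ZNF431. Capitals mark CCAAT in either direction and the words of 12 bases CTGTCACTCAGG and GTCCAATCAGGC.
ZNF93: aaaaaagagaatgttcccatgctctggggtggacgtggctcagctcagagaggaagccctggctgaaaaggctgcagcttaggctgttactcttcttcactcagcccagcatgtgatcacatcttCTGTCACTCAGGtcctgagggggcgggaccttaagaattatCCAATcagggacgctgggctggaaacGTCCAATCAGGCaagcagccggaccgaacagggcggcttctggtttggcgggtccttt
ZNF90: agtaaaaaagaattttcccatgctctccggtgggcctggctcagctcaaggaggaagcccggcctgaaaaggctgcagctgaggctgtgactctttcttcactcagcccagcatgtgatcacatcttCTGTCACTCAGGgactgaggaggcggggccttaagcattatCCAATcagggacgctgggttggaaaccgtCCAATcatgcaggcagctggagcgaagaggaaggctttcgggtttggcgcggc
ZNF737: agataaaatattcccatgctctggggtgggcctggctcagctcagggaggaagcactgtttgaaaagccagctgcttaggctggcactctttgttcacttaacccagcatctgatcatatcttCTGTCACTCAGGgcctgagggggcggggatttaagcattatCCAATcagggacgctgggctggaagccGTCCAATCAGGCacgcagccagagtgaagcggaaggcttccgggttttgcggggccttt
ZNF431: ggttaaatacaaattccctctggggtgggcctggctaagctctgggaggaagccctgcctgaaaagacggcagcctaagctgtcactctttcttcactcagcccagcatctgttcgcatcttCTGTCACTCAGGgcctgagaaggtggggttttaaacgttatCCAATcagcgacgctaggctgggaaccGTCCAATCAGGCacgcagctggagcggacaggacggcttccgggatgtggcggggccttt
A promoter was given for 26 of the 34 members. CCAAT, searched on both strands, stood in all 26, against 34.5% of 15842 protein-coding promoters and 42.1% of the 178 promoters of other zinc finger genes of chromosome 19. CTGTCACTCAGG stood in 18 of the 26 and in 0.183% of all promoters, and GTCCAATCAGGC, which itself contains CCAAT, in 18 and in 0.170%. Both words were picked because member promoters share them, and 12 of the 16 promoters that held both belong to members. The first began 69 to 130 bases before the start and the second 53 to 60 bases before it. The sequence GGGCGG was found in 20 of the 26 promoters (56% of all promoters) and TATAAA in 3 (9.23%). CACGTG, found in 7.84% of all promoters, stood in none of the 26. CpG sites, where DNA is methylated, numbered 3 to 13 in these windows with a median of 8, against a median of 17 over all promoters. Among 9 promoters of members with an untreated difference of at least 1, CTGTCACTCAGG stood in 8, GTCCAATCAGGC in 7, GGGCGG in 8 and TATAAA in 0, with a median of 8 CpG sites. Among 16 promoters of other measured members CTGTCACTCAGG stood in 10, GTCCAATCAGGC in 10, GGGCGG in 11 and TATAAA in 3, with a median of 8 CpG sites. These shares were not tested against each other.

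Values were log2 intensities with array medians of 4.96 to 5.01, and within-group correlations ran from 0.990 to 0.995. The lower quartile of each array was used as a guide to background, and a group mean at or under 3.39, the highest of these quartiles, is described as not shown to exceed it. ZNF682, ZNF43, ZNF729 and ZNF99 were at or under that level in all 4 groups. Markers of the erythroleukaemic K562 line were above background in every group for 12 of the 12 measured, while ABCB1, the P-glycoprotein gene, read 11.36 and 11.22 in treated and untreated KA and 3.46 and 3.39 in treated and untreated KS. Of 9 measured lymphoid markers 7 were above background in each group, and of 8 epithelial markers 7. Of 9 fibroblast and endothelial markers 7 were above it in each group but treated KS, where it was 6. The level is a lower quartile, so most genes exceed it, and 15700 of 18417 genes remained with dim genes left out. These counts therefore separate cell types poorly and do not establish the identity of the lines. Among the lymphoid markers CD3D, a T cell receptor chain named after its values were seen, differed between the lines, with 6.91 and 6.95 in treated and untreated KA and 4.55 and 4.67 in treated and untreated KS. The 9 measured lymphoid markers had a median untreated difference, KA minus KS, of -0.03, with 4 positive and 5 negative. The other CD3 genes, CD3E and CD3G, differed by -0.12 and 0.37 between the untreated lines. Any part of CD3D in the low values of the cluster was not tested. The array of untreated KS replicate 3 lay a median of 0.11 under the mean of the other untreated KS arrays over the 31 members (from -0.46 to 0.28), against a median of 0.02 above it over all genes. The median SD of members was 0.15 to 0.18 in the 4 groups, and that of all genes 0.09 to 0.11.

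**Figure D1:**
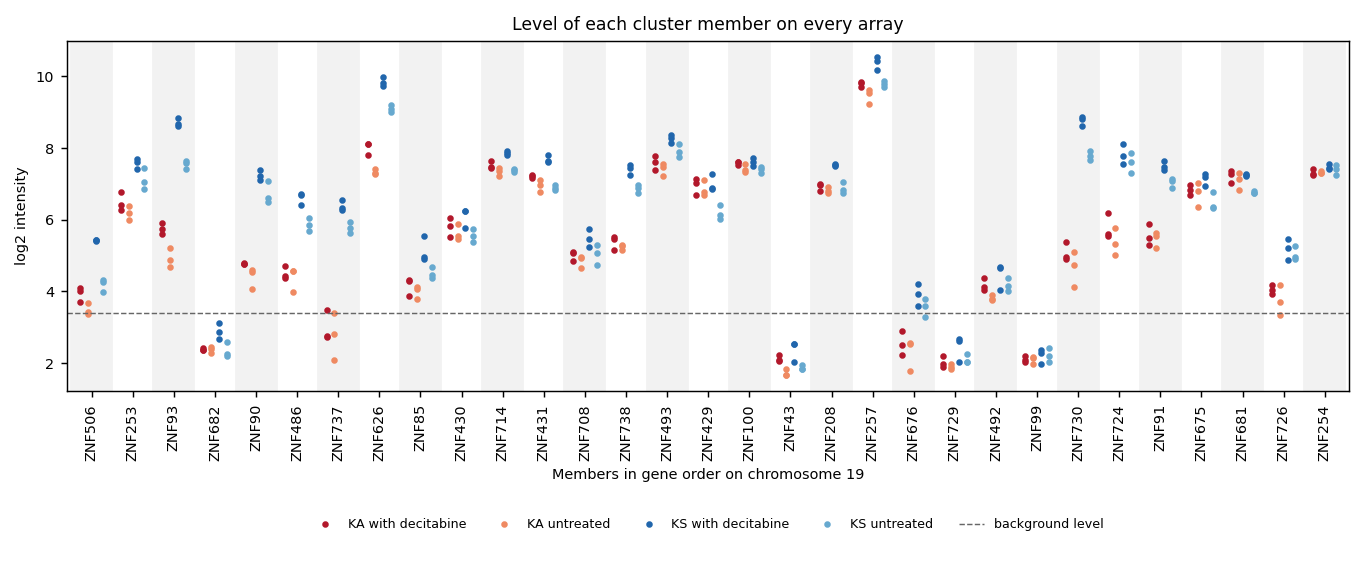
Log2 intensity (vertical axis) of the 31 measured members in gene order along chromosome 19 (horizontal axis), with 1 point per array and 3 arrays per group. The dashed line is the background level of 3.39, and KA points lie well under KS points for ZNF93, ZNF90, ZNF737, ZNF730 and ZNF724 but not for ZNF431, ZNF100 or ZNF254.

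Much of the cluster read low in untreated KA, in stretches broken by genes that read alike in both lines. Every untreated KA array lay below every untreated KS array for 18 of 31 members, where 20% of all genes did so, and 11 members had a measured difference of at least 1 on the log2 scale as well, where 0.988% of all genes did. These 11 were ZNF93, ZNF90, ZNF486, ZNF737, ZNF626, ZNF738, ZNF676, ZNF730, ZNF724, ZNF91 and ZNF726. ZNF737 and ZNF676 were not shown to exceed background in KA, and with KA taken at the background level 10 of the 11, all but ZNF676, still differed by at least 1. ZNF429 and ZNF681 were higher on every KA array, as 18.4% of all genes were. Among members above background in both lines the largest of these differences was in ZNF730, which read 4.13, 4.74 and 5.10 in untreated KA and 7.66, 7.77 and 7.93 in untreated KS, a difference of -3.13 ± 0.20 (SE), or 8.76-fold lower. Its highest KA array lay far below its lowest KS array.

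On the telomeric side the low stretch began at the edge of the cluster. ZNF506 differed by -0.69 ± 0.12 and ZNF253, also called BMZF1, a gene first found in bone marrow, by -0.93 ± 0.16. ZNF93 read 4.67, 4.89 and 5.20 in untreated KA and 7.58, 7.42 and 7.65 in untreated KS (-2.63 ± 0.13, 6.21-fold lower). The KA and KS arrays of this L1 repressor were more than 2 units apart. ZNF90 read 4.06, 4.55 and 4.60 in untreated KA and 6.60, 7.07 and 6.51 in untreated KS (-2.32 ± 0.16). ZNF486 read 3.98, 4.56 and 4.58 in KA and 5.86, 6.05 and 5.70 in KS (-1.50 ± 0.16). ZNF626, whose level was well above background in both lines, read 7.29, 7.31 and 7.42 in KA and 9.02, 9.19 and 9.08 in KS (-1.75 ± 0.10). ZNF737 read 2.09, 3.41 and 2.81 in untreated KA, not shown to exceed background, and 5.93, 5.62 and 5.76 in untreated KS. It was at least 5.18-fold lower, with the fold taken against the background level. ZNF682, which lies between ZNF93 and ZNF90, was under background in every group and shows nothing about this stretch.

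The stretch of low genes then ended. ZNF85 differed by -0.52 ± 0.17, lower on every array. The following ZNF430, ZNF714, ZNF431 and ZNF708 differed by 0.07, -0.03, 0.06 and -0.19, with overlapping arrays. ZNF431 read 6.78, 6.97 and 7.10 in untreated KA and 6.98, 6.89 and 6.82 in untreated KS, the same range in both lines. ZNF738 was lower by far more than the members on either side, with 5.17, 5.30 and 5.28 in untreated KA and 6.75, 6.88 and 6.98 in untreated KS (-1.62 ± 0.10). ZNF493, next to it, differed by -0.50 ± 0.12 and was also lower on every array. ZNF429 ran the other way and read 6.68, 6.77 and 7.12 in untreated KA and 6.03, 6.41 and 6.13 in untreated KS (0.67 ± 0.15). ZNF100 and ZNF208 differed by 0.02 and -0.05, with overlapping arrays, and ZNF257 by -0.33 ± 0.11. A dimmer row of ZNF257, above background in all groups, differed by -1.51, so the placing of ZNF257 outside the low set rests on the row used. ZNF676 read 2.56, 1.79 and 2.53 in untreated KA, not shown to exceed background, and 3.60, 3.78 and 3.30 in untreated KS. Its groups did not overlap, and it was at least 1.12-fold lower.

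A further block of low genes lay toward the centromere, from ZNF730 to ZNF91 (chr19:23075211-23395471). ZNF724 read 5.03, 5.32 and 5.76 in untreated KA and 7.61, 7.86 and 7.30 in untreated KS (-2.22 ± 0.22). ZNF91, the repressor of SVA elements, read 5.54, 5.22 and 5.62 in untreated KA and 7.09, 7.13 and 6.88 in untreated KS (-1.57 ± 0.14, 2.98-fold lower). No KA array of these genes came near a KS array. ZNF675, known as an inhibitor of the signalling adaptor TRAF6, differed by 0.25 ± 0.17 with overlapping arrays, and ZNF681 by 0.33 ± 0.11. ZNF726 was low again, with 3.34, 3.70 and 4.18 in untreated KA and 4.95, 5.27 and 4.92 in untreated KS (-1.31 ± 0.19). ZNF254, the last member, differed by -0.07 ± 0.08. The plot of KA minus KS along the cluster shows the pattern of low blocks and level stretches.

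**Figure D2:**
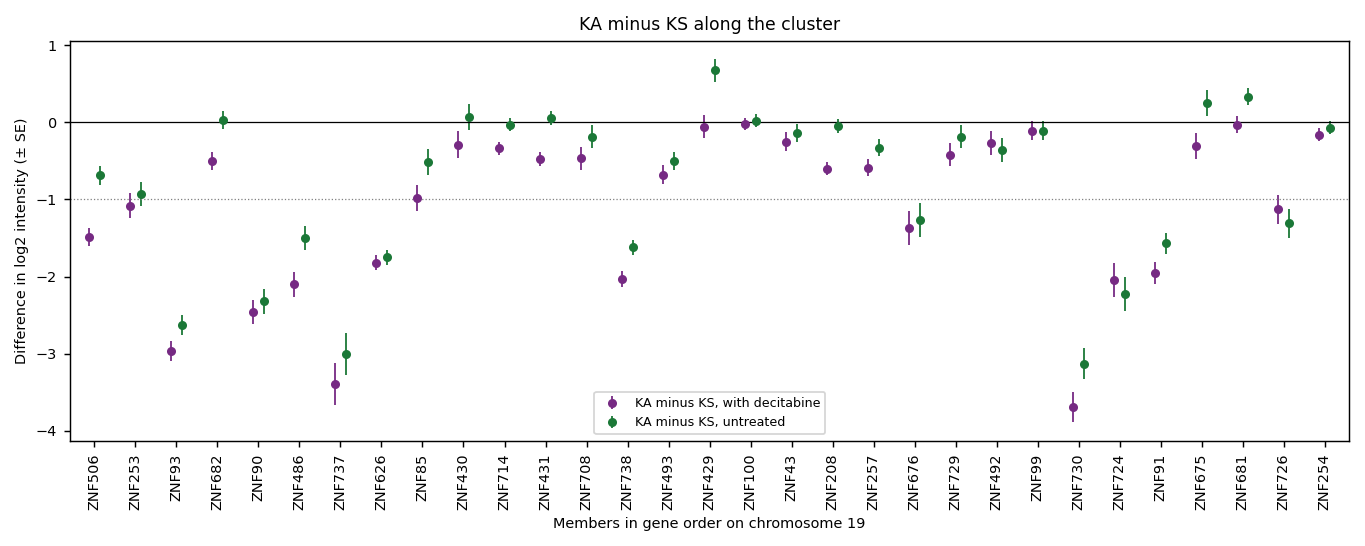
Difference in log2 intensity, KA minus KS (vertical axis, ± SE, 3 arrays per group), for each measured member in gene order (horizontal axis), with decitabine (purple) and untreated (green). Low stretches run from ZNF506 to ZNF626, but for ZNF682 when untreated, and from ZNF730 to ZNF91. These and the single low points at ZNF738, ZNF676 and ZNF726 recur with decitabine. The dotted line marks -1.

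The same genes were low when both lines had received decitabine. Every treated KA array lay below every treated KS array for 22 of 31 members, where 19.4% of all genes did so, and no member was higher on every array, where 22.1% of all genes were. All 11 members with a measured difference of at least 1 between the untreated lines had one between the treated lines too, joined by ZNF506 (-1.49 ± 0.12) and ZNF253 (-1.08 ± 0.16), where 1.16% of all genes did. Of these 13, 12 still differed by at least 1 with KA taken at the background level, and ZNF676 was at least 1.43-fold lower. ZNF730 read 5.39, 4.95 and 4.91 in treated KA and 8.88, 8.62 and 8.81 in treated KS, a difference of -3.69 ± 0.20, or 12.9-fold. ZNF737 was at least 7.97-fold lower. Across the 31 members the treated and untreated differences between the lines, which share no arrays, correlated at r = 0.97, a description over genes that are close copies and no independent replicates.

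The listed protein-coding genes around the cluster had line differences centred near 0. The flanks were taken without zinc finger genes. The nearest 15 such protein-coding genes on the telomeric side had a median untreated difference of 0.03 (from -0.33 to 0.44), and the 15 on the other side, which lie across the centromere, one of -0.09 (from -0.52 to 0.38), beside 0.02 over all genes and -0.36 over the members. Nearest on the telomeric side, LPAR2, a lysophosphatidic acid receptor, GMIP and ATP13A1, an endoplasmic reticulum ATPase, differed by 0.03, -0.10 and -0.33. ATP13A1, the nearest of them, was lower on every untreated KA array. The zinc finger genes ZNF101 and ZNF14 lie between ATP13A1 and the cluster, were looked up after the other values were seen, and differed by -0.14 and -0.10 with overlapping arrays. Across the centromere VSTM2B, POP4, a subunit of RNase P, and PLEKHF1, an endosomal protein, differed by 0.12, -0.26 and 0.22. The locus LOC100420587, nearer to the cluster than these and outside the lists, was looked up with ZNF101 and ZNF14. It read 7.33 in untreated KA and 8.27 in untreated KS, lower on every KA array (-0.93 ± 0.08). Inside the span, the pseudogene ZNF826P lies between ZNF486 and ZNF737 and went the other way, with 4.60 ± 0.18 in untreated KA and 3.93 ± 0.12 in untreated KS (SD, n = 3; 0.67 ± 0.09). RPSA2, CCNYL6 and GOLGA2P9, the other non-members measured there, differed by 0.07, 0.01 and 0.37. Low values in KA were not limited to this cluster among zinc finger genes. Of 199 other zinc finger genes of chromosome 19, 85 (42.7%) were lower and 18 higher on every untreated KA array, with a median of -0.20. Over all genes 20% were lower and 18.4% higher. Of the 199, 10 were lower by at least 1 as well, where 0.988% of all genes were. Of 252 on other chromosomes, 54 (21.4%) were lower and 70 higher on every array, with a median of 0.03. Their share of lower genes lies near that of all genes.

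Decitabine raised most of the cluster in KS. Of 31 members 20 rose and none fell (limma, adjusted p under 0.05 over 18417 genes), a share of 64.5% where 14.6% of all genes rose and 15.7% fell. At an unadjusted p under 0.05, 25 members were higher and none lower, where 18.6% of all genes were higher and 20.3% lower. The median change of the members was 0.52 on the log2 scale, with a range of 0.00 to 1.24, against -0.01 over all genes. This contrast did not choose the cluster, but both its treated and its untreated KS arrays stand in the comparisons of the lines that did, and a high treated KS value enters the choice and this change alike. Of 199 other zinc finger genes of chromosome 19, 50 rose and 13 fell (median 0.11), and of 252 on other chromosomes 43 rose and 35 fell (median 0.02). Among the 15 flanking genes of the telomeric side 3 rose and 3 fell, and of the 15 on the other side 2 rose and 2 fell. ZNF101, just outside the cluster, rose by 0.33 ± 0.09 (adjusted p = 0.00937), and ZNF14 had a value of 0.24 that was not called.

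The largest rise in KS was in ZNF506, at the telomeric edge, which read 5.41, 5.43 and 5.43 with decitabine and 3.98, 4.26 and 4.32 without (1.24 ± 0.12, 2.36-fold, adjusted p = 1.32e-05). The treated arrays were almost equal and stood more than 1 unit above each untreated array. ZNF93 read 8.66, 8.63 and 8.83 in treated KS and 7.58, 7.42 and 7.65 in untreated KS (1.15 ± 0.13, adjusted p = 2.86e-05). ZNF730 read 8.88, 8.62 and 8.81 with decitabine and 7.66, 7.77 and 7.93 without (0.98 ± 0.20, adjusted p = 0.00211). In these members of the low blocks the treated and untreated arrays did not overlap. ZNF429 read 7.27, 6.87 and 6.89 in treated KS and 6.03, 6.41 and 6.13 in untreated KS (0.82 ± 0.15, adjusted p = 0.00122). ZNF431 read 7.62, 7.63 and 7.82 with decitabine and 6.98, 6.89 and 6.82 without (0.79 ± 0.09, adjusted p = 3.27e-05). ZNF626 read 9.73, 9.81 and 9.97 in treated KS and 9.02, 9.19 and 9.08 in untreated KS (0.74 ± 0.10, adjusted p = 8.40e-05). All treated arrays of these genes were above all untreated ones.

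Rises in KS ran through both the low blocks and the stretches between them. Of the 11 members lower by at least 1 in untreated KA, 7 rose in KS, with a median change of 0.54, and of the 20 others 13 rose, with a median of 0.50. Among the low ones, ZNF486 read 6.70, 6.41 and 6.73 in treated KS and 5.86, 6.05 and 5.70 in untreated KS (0.74 ± 0.16, adjusted p = 0.0028). ZNF738 read 7.44, 7.25 and 7.53 with decitabine and 6.75, 6.88 and 6.98 without (0.54 ± 0.10, adjusted p = 0.00153). In both the groups were apart. ZNF90 read 7.40, 7.11 and 7.21 in treated KS and 6.60, 7.07 and 6.51 in untreated KS (0.52 ± 0.16, adjusted p = 0.0222), and 1 untreated array came close to the treated ones. ZNF91 read 7.48, 7.40 and 7.64 in treated KS and 7.09, 7.13 and 6.88 in untreated KS (0.48 ± 0.14, adjusted p = 0.0225). ZNF724, ZNF726, ZNF676 and ZNF737 had values of 0.23, 0.13, 0.35 and 0.62 and were not called.

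Members outside the low blocks were called in KS as well. ZNF208 changed by 0.65 ± 0.09 (adjusted p = 0.000136). ZNF675 read 7.28, 6.94 and 7.20 in treated KS and 6.37, 6.78 and 6.32 in untreated KS (0.65 ± 0.17, adjusted p = 0.00945). ZNF257 read 10.55, 10.17 and 10.43 with decitabine and 9.70, 9.88 and 9.79 without (0.59 ± 0.11, adjusted p = 0.00149). All treated arrays of these genes were higher. ZNF714 read 7.86, 7.81 and 7.92 in treated KS and 7.32, 7.43 and 7.38 in untreated KS (0.49 ± 0.08, adjusted p = 0.000375). ZNF681 read 7.25, 7.28 and 7.21 with decitabine and 6.74, 6.79 and 6.74 without (0.49 ± 0.11, adjusted p = 0.00493). The arrays of both genes lay close together within each group. ZNF85 read 4.96, 4.90 and 5.56 in treated KS and 4.45, 4.39 and 4.68 in untreated KS (0.63 ± 0.17). ZNF430 read 6.25, 5.76 and 6.24 with decitabine and 5.56, 5.75 and 5.39 without (0.52 ± 0.17, adjusted p = 0.0307), with the nearest arrays almost equal. ZNF708 read 5.73, 5.25 and 5.46 in treated KS and 5.29, 5.08 and 4.73 in untreated KS, which overlap (0.45 ± 0.15, adjusted p = 0.0399). It was the only one of the 20 with overlapping arrays, and over all members 22 of 31 were higher on every treated array, as 19.3% of all genes were. ZNF682 read 2.67, 3.13 and 2.87 with decitabine and 2.58, 2.27 and 2.21 without, and ZNF43 read 2.04, 2.54 and 2.54 with it and 1.83, 1.84 and 1.94 without. Both were called (0.54 and 0.51), but neither was shown to exceed background in either group. ZNF100 (0.20), ZNF254 (0.08) and ZNF99 (0.00) had the smallest values and were not called, nor were ZNF253 (0.45), ZNF493 (0.35), ZNF729 (0.34) and ZNF492 (0.27). The count was 15 without treated KS replicate 3, where ZNF430, ZNF708, ZNF85, ZNF90 and ZNF91 lost their calls, and 16 without untreated KS replicate 3, where the same genes but ZNF85 did. ZNF430 and ZNF90 also lost theirs without treated or untreated KS replicate 1, ZNF85 without untreated KS replicate 2, and ZNF708 without treated KS replicate 1, untreated KS replicate 2, treated KA replicate 1 or untreated KA replicate 2. Without treated KS replicate 1 and untreated KS replicate 3 together 16 were called. Of the 12 measured markers of the K562 line, 7 rose with decitabine in KS, where 14.6% of all genes rose, and 2 in KA, where 9.66% did. None fell in either line, and their median change was 0.21 in KS (from -0.19 to 3.62) and 0.02 in KA. Untreated KS replicate 3 stood apart on SLC4A1 and ALAS2, named after their values were seen. SLC4A1, the red cell anion exchanger, read 4.98, 4.63 and 7.45 in untreated KS, and ALAS2, the erythroid enzyme of haem synthesis, 7.61, 7.40 and 9.11. The other markers were mixed. That array was the highest of its group for GATA1, HBZ and NFE2, the lowest for TFRC, EPOR and RHAG, and in between for TAL1, KLF1, LMO2 and HBE1. Any part of the K562 markers or of this array in the rise of the cluster was not tested.

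**Figure D3:**
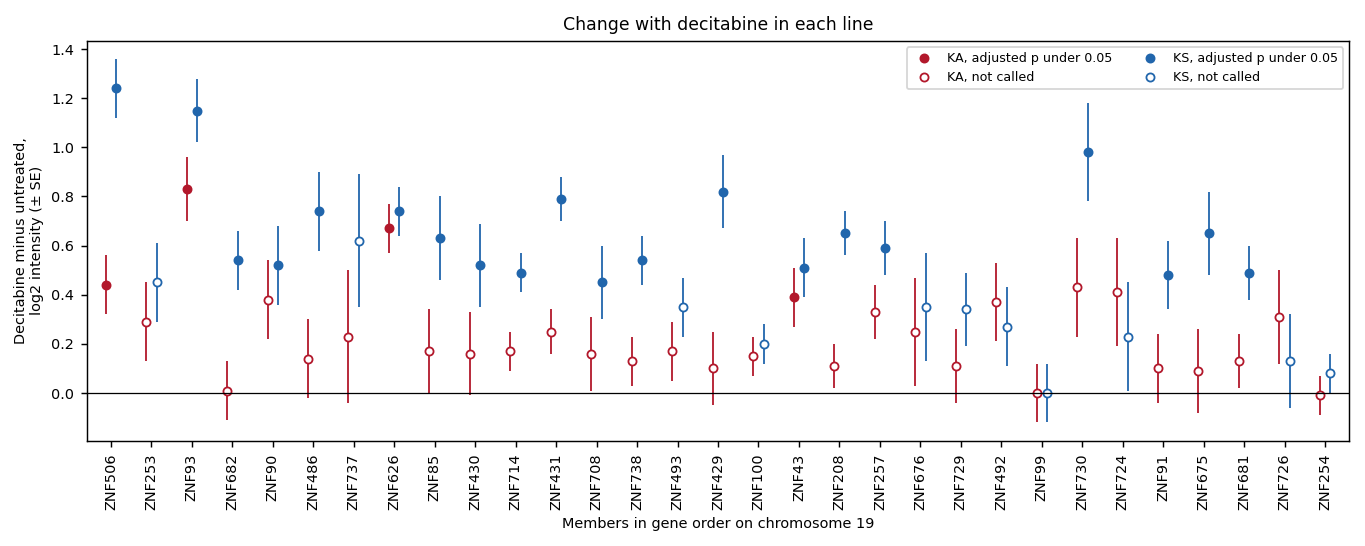
Change in log2 intensity with decitabine (treated minus untreated, vertical axis, ± SE, 3 arrays per group) for each measured member in gene order (horizontal axis), in KA (red) and KS (blue). Filled points are called at adjusted p under 0.05, which holds for 4 members in KA and 20 in KS.

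In KA few members reached the threshold. Of 31 members 4 rose and none fell in the limma fit, a share of 12.9% where 9.66% of all genes rose and 4.96% fell, so this count lies near the background. At an unadjusted p under 0.05, 9 members were higher and none lower, where 16.1% of all genes were higher and 12.2% lower. The members were chosen for low values in KA, and its untreated arrays are also the baseline here, so a low reading there enters the choice and this change alike. The median change was 0.17, against -0.02 over all genes. A positive value was found in 30 of 31 members, where 8450 of 18417 genes had one. That count was 27 without treated KA replicate 3 or untreated KA replicate 1 or 2, and the members are close copies and no independent replicates. ZNF93 read 5.73, 5.61 and 5.92 in treated KA and 4.67, 4.89 and 5.20 in untreated KA (0.83 ± 0.13, 1.78-fold, adjusted p = 0.00115). ZNF626 read 8.12, 7.81 and 8.11 with decitabine and 7.29, 7.31 and 7.42 without (0.67 ± 0.10, adjusted p = 0.00081). Treated and untreated arrays of these low-block genes did not overlap. ZNF506 read 4.0, 3.7 and 4.11 in treated KA and 3.36, 3.44 and 3.68 in untreated KA (0.44 ± 0.12, adjusted p = 0.0265), and ZNF43 read 2.23, 2.09 and 2.05 in treated KA and 1.68, 1.85 and 1.66 in untreated KA (0.39 ± 0.12, adjusted p = 0.0421), levels not shown to exceed background. The ZNF506 and ZNF43 calls were lost when treated KA replicate 1 or 3, or untreated KA replicate 1 or 2, was left out, which left 2 calls each time. Without untreated KA replicate 3 there were 6, and ZNF43 lost its call there, without treated KA replicate 2 and without untreated KS replicate 1 or 2. All 4 members raised in KA were among the 20 raised in KS, which is 100% of the shorter list and 20% of the longer. As 64.5% of the 31 members rose in KS, an overlap of so short a list carries little weight. The same overlap over all genes was not computed.

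With decitabine the low genes of KA still read below untreated KS. Every treated KA array lay below every untreated KS array for 13 of 31 members, as it did for 22% of all genes. All 11 members with an untreated difference of at least 1 were among them, having been picked for lying far below untreated KS. ZNF93 averaged 5.75 ± 0.16 in treated KA and 7.55 ± 0.12 in untreated KS (SD, n = 3). ZNF730 averaged 5.08 ± 0.27 in treated KA, against 7.79 ± 0.14 in untreated KS, and its change in KA (0.43 ± 0.20) was not called (adjusted p = 0.183). ZNF91 averaged 5.55 ± 0.30 in treated KA and 7.03 ± 0.13 in untreated KS. ZNF737 averaged 2.99 ± 0.43 in treated KA, still not above background, and 5.77 ± 0.16 in untreated KS.

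The responses of both lines were compared directly as the change in KA minus the change in KS. The value was negative for 27 of 31 members, where it was for 9281 of 18417 genes, with a median of -0.31 against 0.00 over all genes. The limma fit called 3 members lower and none higher, where 2.14% of all genes were called lower and 4.6% higher. Over all genes 847 were higher and 394 lower, against 1300 and 749 without untreated KS replicate 3 and 364 and 200 without untreated KS replicate 1. At an unadjusted p under 0.05, 10 members were lower and none higher, where 9.04% of all genes were lower and 13.7% higher. This value equals the treated difference between the lines minus the untreated one, so it is drawn from the arrays that chose the cluster and is no independent measure. ZNF506 had a change of 0.44 in KA and 1.24 in KS, a difference of -0.80 ± 0.17 (adjusted p = 0.0172). It averaged 3.5 in untreated KA, close to the background level of 3.39, with 1 array at 3.36. Whether this nearness to background made its change in KA smaller was not tested. ZNF431 read 7.16, 7.22 and 7.24 in treated KA and 6.78, 6.97 and 7.10 in untreated KA, a change of 0.25 against 0.79 in KS (difference -0.54 ± 0.13, adjusted p = 0.026). ZNF208 read 6.98, 6.81 and 6.99 in treated KA and 6.74, 6.81 and 6.91 in untreated KA, which overlap, and 7.55, 7.52 and 7.50 in treated KS and 6.83, 7.06 and 6.74 in untreated KS, which do not (difference -0.54 ± 0.13, adjusted p = 0.0256). These calls rest on the arrays that chose the cluster, and those of ZNF431 and ZNF208 were not kept in every alternative. For ZNF626 and ZNF93, raised in both lines, the differences of -0.07 ± 0.14 and -0.32 ± 0.18 were not called. The count was 1 when treated KA replicate 2, untreated KA replicate 2 or 3, or treated KS replicate 3 was left out, with ZNF431 and ZNF208 losing their calls. ZNF431 also lost its call without treated KA replicate 1 or untreated KS replicate 2, and ZNF208 without treated KS replicate 2 or untreated KS replicate 1.

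**Figure D4:**
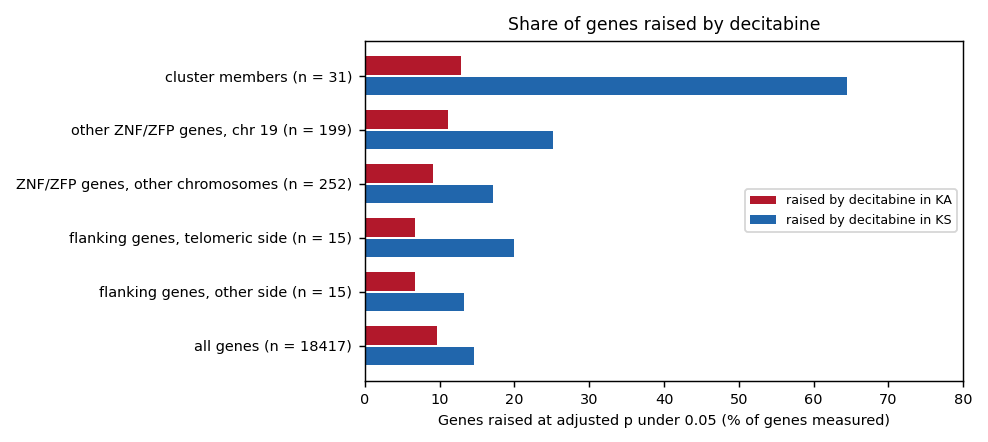
Share of measured genes raised by decitabine at adjusted p under 0.05 (horizontal axis, percent) in KA (red) and KS (blue), for the cluster members, other zinc finger genes and flanking genes, and all genes (vertical axis). Members reach 12.9% in KA and 64.5% in KS, beside 9.66% of all genes in KA and 14.6% in KS.

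Transcripts of KRAB corepressors were measured as well, in a broader list with general heterochromatin and DNA methylation genes. Its counts therefore do not describe the KRAB pathway alone. Of 25 corepressor and heterochromatin genes, 3 rose and 13 fell with decitabine in KS (median -0.22, limma), or 12% and 52%. Over all genes 14.6% rose and 15.7% fell there. In KA 1 rose and 2 fell (median -0.07), or 4% and 8%, where 9.66% of all genes rose and 4.96% fell, so the KA counts are small beside the background. HELLS, a chromatin remodeller, and SMARCAD1, another remodeller, each changed by -0.49 in KS (adjusted p = 0.00454 and 0.00272), the DNA methyltransferase DNMT3B by -0.45 (adjusted p = 0.000962) and the histone chaperone DAXX by -0.43 (adjusted p = 0.00155). For their place in the KRAB pathway SETDB1 and TRIM28 are given too, as are the 3 genes that rose, all named after their values were seen, with a change of -0.41 in SETDB1 (adjusted p = 0.003) in KS. TRIM28, the corepressor itself, changed by -0.18 ± 0.06 in KS (adjusted p = 0.0406) and -0.07 in KA, where it was not called (adjusted p = 0.482). CBX5, the heterochromatin protein HP1 alpha, rose by 0.42 in KS (adjusted p = 0.000879), as did CHD3, a remodeller of the NuRD complex, by 0.36, and ATF7IP, the partner of SETDB1, by 0.30. In KA ATF7IP rose by 0.33 (adjusted p = 0.0219), while UHRF1, which guides DNMT1 to new DNA, changed by -0.30 (adjusted p = 0.0262) and CHD4 by -0.26. Any part of these changes in the rise of the cluster was not tested.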

How the data were processed

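Gene expression was measured on 12 Affymetrix arrays (biotin-labelled cRNA from Trizol RNA, per the labels' protocols). The authors deposited log2 intensities. The background correction, summarization and normalization behind them are not given in the sources used here, and no further scaling was applied. Of 33297 rows, 19460 carry 1 gene symbol per the platform annotation, 1754 several and 12083 none. The brightest row stood for each of 18417 genes, and 4 members had more than 1 row. RefSeq (GRCh38.p14) gave gene order and promoters, with 19429 rows matched by Entrez identifier. Group means were fitted in limma 3.58.1 (R 4.3.3, 8 residual and 4.71 prior degrees of freedom), with Benjamini-Hochberg adjustment over all genes and a threshold of 0.05. Lists are given as counts and medians, with no list test. The fit was tested on simulated data. Same-numbered arrays did not deviate together (correlations of -0.26 to 0.19), so numbers were not used as pairs. Values on every array are given for members with an untreated line difference of at least 1 without overlap and for members called in a decitabine contrast or in the difference of responses. At most 4 called genes with the largest change are named per list and contrast, with exceptions stated, and the nearest 3 flanking genes on each side whatever their values. Promoter windows inside the gene's own span are not printed. Members and lists were chosen with earlier results of these data known. Alternatives were other scalings, variance models, filters, row choices, a replicate block and arrays left out. The number of arrays limits the precision. Figures were drawn with matplotlib 3.10.9.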

Additional observations from a re-analysis of the deposited data

Results flagged for a closer look

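The response to decitabine was called as different between the lines for 3 members by the test of the difference itself (limma, adjusted over 18417 genes, 3 arrays a group). ZNF506 had a change in KA minus change in KS of -0.80 (adjusted p = 0.0172, and 0.00779 to 0.0459 over its alternatives). ZNF431 had one of -0.54 (adjusted p = 0.026, and 0.00576 to 0.0647), and ZNF208 one of -0.54 (adjusted p = 0.0256, and 0.00618 to 0.0671). Each rose on every treated KS array. The value equals the treated difference between the lines minus the untreated one, which chose the cluster, and is no independent measure. ZNF506 averaged 3.5 in untreated KA, close to the background level of 3.39. Whether this made its change in KA smaller was not tested.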

How the results depend on the processing

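Results were recomputed under 21 alternatives. The number of members raised by decitabine in KS was 18 to 23 under the other scalings, filters, row choices and variance models and 15 to 23 with single arrays left out. Of the 20 calls, 14 were kept in every alternative that tested the gene. Among these 14 were ZNF43 and ZNF682, not shown to exceed background in any group, which were removed untested where dim genes were left out. The number raised in KA was 2 when all transcript clusters were tested, 3 to 6 under the other settings and 2 to 6 with single arrays left out, and ZNF93 and ZNF626 were called throughout. The number with a lower response in KA than in KS was 5 after quantile normalization, 1 when all transcript clusters were tested and 1 to 4 with single arrays left out, and ZNF506 was called throughout. The replicate block gave 3 raised in KA, 20 raised in KS and 2 with a lower response in KA, where ZNF43 in KA, ZNF708 in KS and ZNF208 in the difference lost their calls and ZNF493 in KS gained one. No member was called as lowered in either line, or as having a higher response in KA, under any alternative. Members lower on every array numbered 17 to 20 in untreated KA and 21 to 25 in treated KA. The median difference of treated lines was -0.98 with dim genes left out and -0.76 with the mean of a gene's rows, against -0.60. No called value changed sign. Over all genes, quantile normalization gave 611 higher and 522 lower responses in KA, against 847 and 394.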

Other observations

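For 4 members a further row was measured, and for ZNF257 the rows disagreed in size. The brighter row of ZNF257, used above, had a difference between untreated KA and KS of -0.33, and its other row, at 4.55 ± 0.25 in untreated KA and 6.07 ± 0.22 in untreated KS (SD, n = 3), one of -1.51. With decitabine both rows moved alike in KS, by 0.59 and 0.64. ZNF626 had untreated differences of -1.75 and -1.12 in its rows, and ZNF493 -0.50 and -0.62. The rows of ZNF208 differed by -0.05, -0.06 and -0.13.

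A pair of rows carried several member symbols each and were assigned to no gene. The row with 8 symbols, among them ZNF728, read 11.57 and 11.49 in treated and untreated KA and 11.87 and 11.51 in treated and untreated KS. The row with 3 symbols, among them ZNF98, read 3.97 and 3.68 in treated and untreated KA and 4.40 and 3.85 in treated and untreated KS. In both rows the difference with decitabine was larger in KS, at 0.37 and 0.54, than in KA, at 0.07 and 0.28. The difference of these responses was not tested.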
